A study of Mus musculus with 8 samples.

Results

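Lipid-associated macrophages are tissue phagocytes that take up, store and release lipid, and 10 genes that mark them, *Trem2*, *Apoe*, *Spp1*, *Gpnmb*, *Fabp4*, *Fabp5*, *Lpl*, *Cd9*, *Cd63* and *Lgals3*, were followed across the cells of MC38 tumors. The genes were taken from a list of names, chosen with earlier results of these data known. All 10 were found among the 24787 genes listed for the tumors. MC38 is a colon carcinoma line derived from a C57BL/6 mouse, and the tumors were grown subcutaneously in female C57BL/6J mice aged 8 weeks. The tumors were collected 24 hours after injection of saline (3 mice), of free R848 (3 mice) or of medium R848-BPDs (2 mice). R848 (resiquimod) is a small-molecule agonist of the endosomal RNA sensors TLR7 and TLR8, and R848-BPDs are bottlebrush polymers that carry R848 on a cleavable linker, here the one with a medium rate of release. All mice carried the same tumor line, and saline-injected mice are the untreated reference. The comparisons ask which cells carried the lipid-associated genes and whether their levels differed between the treatments.

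CD45+ and CD45− cells were loaded together on Seq-Well arrays, with CD45+ cells in excess, so that the number of cells of a class does not measure its share of the tumor. Transcripts were counted by unique molecular identifiers (UMIs), and a tumor held between 5867590 and 12422614 UMIs. Of 10791 barcodes, 9886 passed limits on genes, UMIs and mitochondrial UMIs. Clusters were named by marker genes, which gave 5323 monocyte/macrophage-like and 1576 MC38-like cells, 974 NK-like, 680 T-like and 656 DC-like ones, and smaller classes named after neutrophils (134), osteoclasts (138) and fibroblasts (50). The 9 macrophage markers measured were all present in this first class in each tumor, with a summed level of 11434 to 16294 per 1000000 UMIs. Markers of adipocytes, which use several of the same lipid genes, summed to at most 0.376 on the same scale in these cells. There were 59 kept cells whose barcode occurred in more than 1 tumor, and 49 of the 100 cells scored as doublets came from free R848 replicate 1. Leaving out the doublets, or the shared barcodes, did not change any call of a member in monocyte/macrophage-like cells.

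Phagocytes that clear dying cells or lipoproteins break the material down in lysosomes, hold its cholesterol and fatty acids in droplets, and pass cholesterol on to acceptors outside the cell. TREM2 is a surface receptor for lipids and lipoproteins that signals through the adaptor TYROBP and the kinase SYK. Cells with this gene program have been described around fat cells, in artery walls, in the brain and in tumors. *Trem2* lies on chromosome 17 (chr17:48346401-48354147, + strand, GRCm38) and *Apoe*, which encodes the lipoprotein component that TREM2 can bind, on chromosome 7 (chr7:19696109-19699188, − strand). Among the genes that move fatty acids, *Lpl* encodes the lipase that frees them from triglyceride-rich lipoproteins (chr8:68880491-68907448, + strand). *Fabp4* (chr3:10204088-10208576, − strand) and *Fabp5* (chr3:10012548-10016607, + strand) encode carriers of fatty acids inside the cell and are neighbors on chromosome 3. *Cd9* (chr6:125460266-125494791, − strand) and *Cd63* (chr10:128900989-128912822, + strand) encode tetraspanins, membrane organizers that are found at the cell surface and in late endosomes and exosomes, respectively. *Spp1* (chr5:104435118-104441050, + strand) encodes osteopontin, a secreted ligand of integrins and CD44. *Gpnmb* (chr6:49036546-49070929, + strand) encodes a glycoprotein of lysosomes and the cell surface, and *Lgals3* (chr14:47367751-47386160, + strand) encodes galectin-3, which binds sugars on glycoproteins and on damaged lysosomes.

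Promoter windows of 7 of the 10 genes were taken from RefSeq (GRCm38.p6), and the table held none for *Fabp4*, *Fabp5* and *Lpl*. The 250 bases before the start site are shown for 4 genes, *Trem2* and *Cd9*, which were lowest after medium R848-BPDs, *Gpnmb*, which was highest there, and *Spp1*, which ranged from 165 to 4304 CPM between saline tumors. They are written 5′ to 3′ on the strand of the gene, and capitals mark the matches to 6 motifs searched on both strands, which may overlap. The windows are chr17:48346151-48346400 (+), chr6:125494761-125495010 (−), chr6:49036268-49036517 (+) and chr5:104434861-104435110 (+), in this order.
Trem2: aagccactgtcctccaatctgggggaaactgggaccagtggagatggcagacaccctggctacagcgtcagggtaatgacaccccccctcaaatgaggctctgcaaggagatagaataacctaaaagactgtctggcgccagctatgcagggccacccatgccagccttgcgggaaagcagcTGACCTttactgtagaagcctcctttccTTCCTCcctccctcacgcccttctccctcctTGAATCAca
Cd9: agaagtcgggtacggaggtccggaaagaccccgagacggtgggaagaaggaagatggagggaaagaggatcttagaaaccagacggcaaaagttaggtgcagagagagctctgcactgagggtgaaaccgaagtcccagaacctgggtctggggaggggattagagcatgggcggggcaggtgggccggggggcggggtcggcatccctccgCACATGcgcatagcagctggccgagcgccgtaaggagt
Gpnmb: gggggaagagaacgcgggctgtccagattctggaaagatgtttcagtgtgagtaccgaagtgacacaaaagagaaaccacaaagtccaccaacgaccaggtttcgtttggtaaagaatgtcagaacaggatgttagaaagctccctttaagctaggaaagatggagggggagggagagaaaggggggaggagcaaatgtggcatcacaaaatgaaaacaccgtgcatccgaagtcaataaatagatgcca
Spp1: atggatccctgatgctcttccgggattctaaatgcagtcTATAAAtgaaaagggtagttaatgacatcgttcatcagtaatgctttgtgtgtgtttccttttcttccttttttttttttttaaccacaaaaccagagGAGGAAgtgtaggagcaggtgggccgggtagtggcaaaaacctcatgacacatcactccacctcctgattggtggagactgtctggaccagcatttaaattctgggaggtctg
In the *Trem2* window the match closest to the start, TGAATCA with its first base at −9, is of the AP-1 type TGANTCA, which 6.75% of 32851 promoter windows held. The window also held the ETS core GAGGAA on the reverse strand at −40 (23.3% of windows) and the nuclear receptor site AGGTCA on the reverse strand at −68 (14% of windows). *Spp1* held GAGGAA at −113 and TATAAA at −211 (12.4% of windows), and *Cd9* the E-box CATGTG on the reverse strand at −38 (12.3% of windows). The *Gpnmb* window held none of the 6 motifs, the last of which, CACGTG, was found in 6.02% of windows and in none of the members' windows. These matches describe letters only.

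*Trem2*, the receptor, was lower after medium R848-BPDs than after saline in the monocyte/macrophage-like class, and the difference passed the test. Levels are given as UMIs of the gene per 1000000 UMIs of the class in a tumor (CPM), from counts summed per tumor, and fold changes and their tests are from edgeR, with the tumor as the replicate and p-values adjusted over all genes. *Trem2* stood at 126 and 95.6 CPM after medium R848-BPDs, at 165, 270.5 and 183 after free R848, and at 222, 243 and 289 after saline. The 2 tumors given medium R848-BPDs lay below all others, and the saline tumors overlapped with those given free R848. The log2 fold change was −1.15 ± 0.24 (SE) against saline (adjusted p = 0.024 from edgeR) and −0.86 ± 0.23 against free R848 (unadjusted p = 0.00502, adjusted p = 0.121). Without saline replicate 1, medium R848-BPD replicate 1 or medium R848-BPD replicate 2, the adjusted p of the first became 0.0536, 0.0652 and 0.207, with log2 fold changes of −1.23, −1.32 and −1.01. Since whole tumors were dissociated, lower RNA per cell and a change in which cells make up the class cannot be told apart from these sums alone.

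*Apoe* did not pass the test. It stood at 9158 and 7227 CPM after medium R848-BPDs, 6520, 10931 and 8378 after free R848, and 9181, 11759 and 8684 after saline. The groups overlapped, and the log2 fold change against saline was −0.24 ± 0.23 (adjusted p = 0.572 from edgeR).

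**Figure D1:**
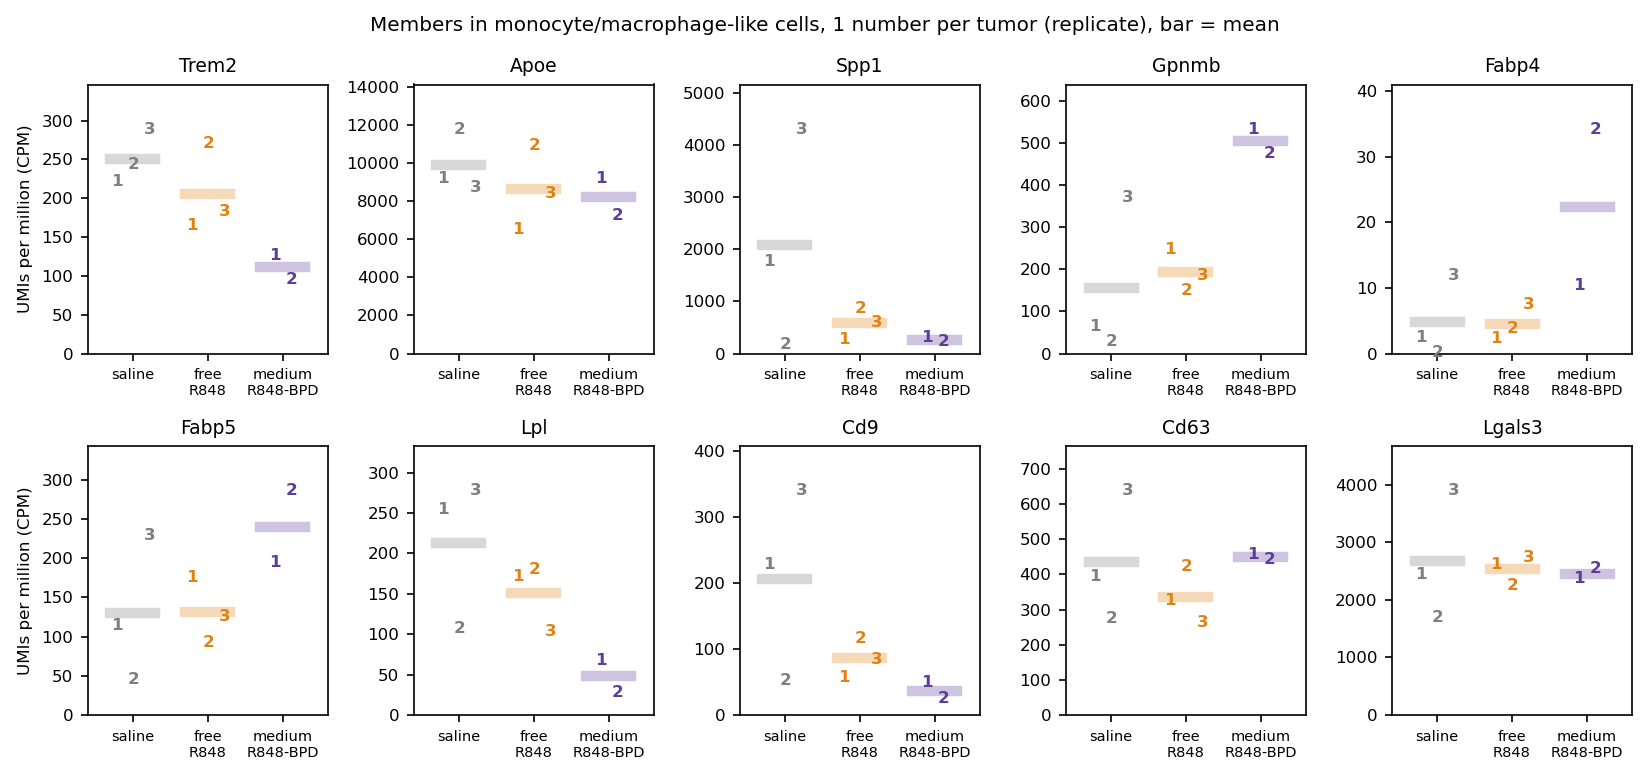
Levels of the 10 genes in monocyte/macrophage-like cells, in CPM (linear axes from 0), by treatment. Each printed number is the replicate number of 1 tumor, placed at its level, and the bar is the group mean. The 2 tumors given medium R848-BPDs are the lowest for *Trem2* and *Lpl* and the highest for *Gpnmb*, and saline replicates 2 and 3 are the lowest and highest tumors for *Spp1*.

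Of the genes that handle fatty acids, *Lpl*, the lipase, fell with *Trem2*. It stood at 67.3 and 28.4 CPM after medium R848-BPDs, 171, 180 and 103 after free R848, and 254, 107 and 277 after saline. Again the 2 tumors given medium R848-BPDs were the lowest of all, and the other groups overlapped. The log2 fold change was −2.12 ± 0.49 against saline (adjusted p = 0.036 from edgeR) and −1.60 ± 0.48 against free R848 (adjusted p = 0.154). Only 11 of 20 alternative settings kept the first call, and leaving out any 1 tumor other than saline replicate 2 raised its adjusted p above the threshold: to 0.061, 0.0594 and 0.0569 without free R848 replicates 1, 2 and 3, to 0.0565 and 0.253 without medium R848-BPD replicates 1 and 2, and to 0.0934 and 0.0628 without saline replicates 1 and 3.

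Both carriers had their highest group mean after medium R848-BPDs, although neither was called. *Fabp5* stood at 194 and 286 CPM after medium R848-BPDs, 175, 92.2 and 125 after free R848, and 114, 45.4 and 229 after saline. Both tumors given medium R848-BPDs lay above those given free R848, and saline replicate 3 lay between them (log2 fold change 0.92 ± 0.56 against free R848, adjusted p = 0.515 from edgeR). *Fabp4*, the carrier of fat cells, was scarce everywhere, with 10.4 and 34.1 CPM after medium R848-BPDs, 2.23, 3.73 and 7.53 after free R848, and 2.41, 0.154 and 11.8 after saline. Its log2 fold change was 2.38 ± 1.03 against free R848 (unadjusted p = 0.0456, adjusted p = 0.336) and 2.47 ± 1.04 against saline (adjusted p = 0.183, edgeR). Without saline replicate 3 the latter was 4.34, with an adjusted p of 0.0404, and without medium R848-BPD replicate 2 it was 1.29 (adjusted p = 0.714, edgeR).

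Of the 2 tetraspanins, *Cd9* had its lowest levels after medium R848-BPDs. *Cd9* was at 49.1 and 25.0 CPM after medium R848-BPDs, 57.3, 115 and 84.7 after free R848, and 228, 52.0 and 339 after saline. The tumors given medium R848-BPDs lay below all others, but saline replicate 2 came close to them. The log2 fold change against saline was −2.45 ± 0.72 (adjusted p = 0.0762 from edgeR), and without saline replicate 2 or 3 it was −2.91 and −1.85 (adjusted p = 0.00122 and 0.131). *Cd63* stood at 456 and 444 CPM after medium R848-BPDs, 325, 422 and 265 after free R848, and 394, 274 and 638 after saline. Saline replicates lay on both sides of the tumors given medium R848-BPDs, and the log2 fold changes were 0.06 ± 0.34 against saline and 0.46 ± 0.34 against free R848 (adjusted p = 0.937 and 0.605 from edgeR).

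Of the secreted and lysosomal members, *Gpnmb* had the highest levels after medium R848-BPDs. It stood at 533 and 476 CPM there, at 247, 151 and 186 after free R848, and at 64.1, 29.5 and 372 after saline. No tumor of another group reached the level of the 2 given medium R848-BPDs, but saline replicate 3 was closer to them than to the other saline tumors. The log2 fold change was 1.41 ± 0.82 against free R848 and 1.71 ± 0.82 against saline (adjusted p = 0.494 and 0.239 from edgeR), and without saline replicate 3 or 2 the latter was 3.49 and 1.20 (adjusted p = 0.00507 and 0.228). *Spp1* ranged from 165 to 4304 CPM within the saline group alone, with 1766 in replicate 1, against 264, 867 and 599 after free R848 and 312 and 226 after medium R848-BPDs. Its range within the saline group exceeded the difference between any group means. The log2 fold change between medium R848-BPDs and saline was −2.97 ± 1.10 (adjusted p = 0.139 from edgeR), and without saline replicate 2 or 3 it was −3.52 and −1.83 (adjusted p = 0.00379 and 0.269). *Lgals3* stood at 2363 and 2544 CPM after medium R848-BPDs, 2614, 2250 and 2730 after free R848, and 2441, 1686 and 3893 after saline (log2 fold change −0.11 ± 0.33 against saline, adjusted p = 0.868 from edgeR).

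In all, 2 of the 10 genes were called in monocyte/macrophage-like cells between medium R848-BPDs and saline, both lower, where 7.22% of 10547 genes tested were called. Between medium R848-BPDs and free R848 none was called by edgeR (1.74% of all genes), with 3 at an unadjusted p under 0.05 (14.2% of all genes), and DESeq2 called 2, *Trem2* and *Lpl* (adjusted p = 0.0311 and 0.00979), among 3.69% of all genes. Between free R848 and saline none was called and none had an unadjusted p under 0.05 (0.019% and 11.3% of all genes), and DESeq2 called none of them either. Without saline replicate 2, *Spp1* and *Cd9* were called lower after free R848 than after saline (adjusted p = 0.041 and 0.0289 from edgeR) and *Lpl* lower after medium R848-BPDs than after free R848 (adjusted p = 0.0161), among 1.25% and 5.73% of all genes. The groups did not overlap for 7, 4 and 0 members in the 3 comparisons, in the order medium R848-BPDs against free R848, medium R848-BPDs against saline and free R848 against saline, beside 34.8%, 38.5% and 16.4% of all genes tested. The median log2 fold change of the 10 genes was −0.02, −0.17 and −0.25, against −0.01, −0.01 and −0.003 over all genes tested. The comparisons share tumors, so their values are not independent.

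**Figure D2:**
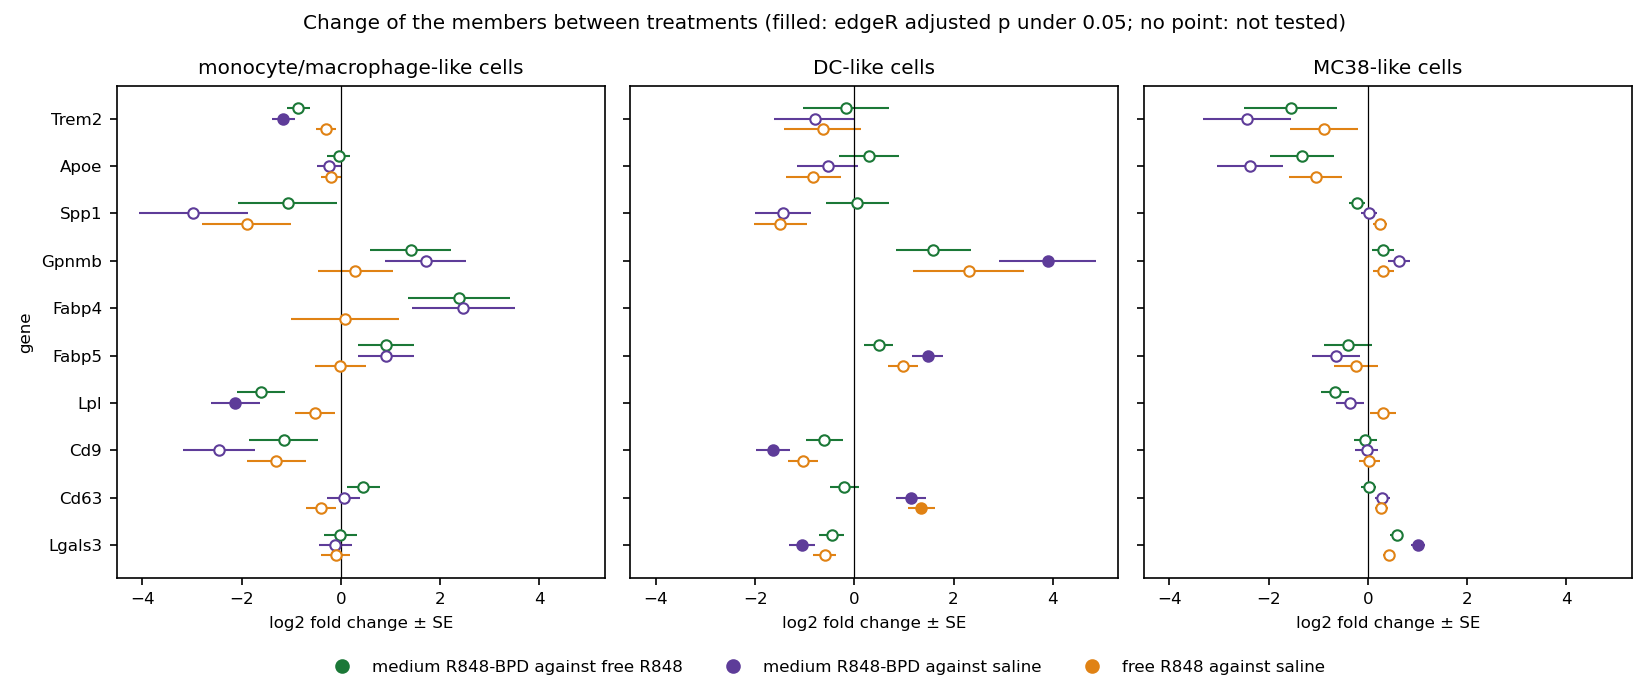
Log2 fold changes of the 10 genes with their standard errors in monocyte/macrophage-like, DC-like and MC38-like cells for the 3 comparisons (colors). Filled points passed the adjusted threshold of 0.05 in edgeR, open points did not, and genes with no point had too few UMIs to be tested. The filled points are *Trem2* and *Lpl* in the first class, *Gpnmb*, *Fabp5*, *Cd9*, *Cd63* and *Lgals3* in DC-like cells, and *Lgals3* in MC38-like cells.

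Other cell markers moved with the treatments inside the monocyte/macrophage-like class. The 9 monocyte markers measured summed to 1879 and 2268 CPM after medium R848-BPDs, 3166 to 4033 after free R848 and 1125 to 4322 after saline. The 7 osteoclast markers summed to 916 and 1250 after medium R848-BPDs, 543 to 615 after free R848 and 130 to 460 after saline, most of it *Acp5* (828 and 1190 after medium R848-BPDs), while *Oscar* and *Calcr* were at 0 in 7 of 8 tumors each. The 7 neutrophil markers summed to 270 and 344 after medium R848-BPDs and to 34.9 to 93.3 in the other 6 tumors, most of it *Mmp8* (196 and 259), with *Cxcr2* at no more than 1.17 CPM in any tumor and *Retnlg* at 0 in 3. Their part in the differences of the members was not tested. With the 2 monocyte clusters left out, *Trem2* differed between medium R848-BPDs and saline by −1.31 on the log2 scale (adjusted p = 0.0132 from edgeR).

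Shares of cells with at least 1 UMI had the same order for *Trem2*, *Lpl* and *Gpnmb*. After each cell was drawn down to 1000 UMIs, *Trem2* was found in 7.65% ± 2.63 of the class after medium R848-BPDs (mean ± SD, 2 tumors), 15.7% ± 3.90 after free R848 (3 tumors) and 17.4% ± 1.58 after saline (3 tumors). Undrawn, at median depths of 5285, 5129 and 4836 UMIs, it was 35.1% ± 9.41, 48.6% ± 8.05 and 51.9% ± 13.2. The undrawn shares overlapped with those of saline tumors, at 41.8% in medium R848-BPD replicate 1 and 41.4% in saline replicate 3. In T-like cells, which should lack the gene, the drawn shares were 0%, 2.04% ± 0.549 and 5.85% ± 4.48, at median depths of 5510, 4985 and 4438 UMIs. *Lpl* was found in 2.97% ± 1.10, 7.92% ± 1.93 and 10.4% ± 2.04 of the class in the same order of groups, against 0.781%, 0.717% and 4.65% of T-like cells, and *Gpnmb* in 20.7% ± 1.66, 9.34% ± 2.34 and 5.73% ± 6.04, against 5.69%, 2.04% and 2.58% of T-like cells. Undrawn, *Lpl* was found in 10.03%, 21.9% and 25.8% and *Gpnmb* in 36.2%, 18.6% and 10.2% of the class. Depth was cut to the same value, and 33 cells with fewer UMIs were left out, 25 of them from saline tumors. The groups did not overlap for 6, 5 and 0 members in the 3 comparisons, beside 29.1% and 31.1% of all genes tested in the first 2 and 24.1% over all 3, but 2 tumors against 3 cannot give less than p = 0.2 in this two-sided exact permutation test, and the adjusted p of these 11 comparisons was 0.545. At least 5 of the 10 genes were found in 24.1% of the cells of saline replicate 3 and in 10.3% and 2.66% of those of saline replicates 1 and 2, against 5.94% to 8.18% in the 5 R848-treated tumors. The lowest and the highest tumor in this count were both saline tumors.

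Monocyte/macrophage-like cells fell into 10 clusters, drawn without the 10 genes and without the gene lists used here, and the members peaked in different ones. The treatments contributed unequally to the clusters, so levels were ranked within each tumor, over the clusters with at least 10 of its cells. *Trem2* was highest in cluster 3, led by *Pf4*, *Folr2* and *Mrc1*, in 8 of 8 tumors, with a mean of 505 CPM over the saline tumors, and stood at 26.7 CPM, pooled over tumors, in cluster 7, a monocyte cluster led by *Chi3l3*, *Lyz2* and *F13a1*. *Apoe* was highest in cluster 3 in 7 of 8 tumors, *Fabp5* in 6, *Cd63* and *Lgals3* in 5 and *Fabp4* in 3. *Gpnmb* and *Spp1* were highest in cluster 0, with *Mmp12* and *Pf4* among its leading genes, in 5 of 8 tumors each, but over saline tumors clusters 3 and 0 were close, at 345 and 344 CPM of *Gpnmb* and 3398 and 3091 of *Spp1*. *Cd9* was highest in cluster 0 in 4 of 8 tumors and in cluster 10, the other monocyte cluster, in 3. *Lpl* was highest in cluster 15 in 3 of 8 tumors, in cluster 8 in 3 and in cluster 10 in 2, and over saline tumors clusters 15 and 3 stood at 406 and 404 CPM of it. Saline tumors held 167 of the 217 cells of cluster 15 and 270 of the 345 of cluster 10. Taken over whole tumors, *Trem2*, *Apoe*, *Gpnmb* and *Cd63* were higher in the macrophage clusters than in the monocyte clusters of 8 of 8 tumors, whereas *Cd9* was higher in 4 of 8. These levels are a description of the clusters and carry no test.

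Within clusters, the treatment difference of *Trem2* was found again. In the 6 clusters with at least 10 cells in both tumors given medium R848-BPDs and in 2 or more tumors of the group compared, those tumors had less *Trem2* than every saline tumor and every tumor given free R848 in 6 of 6, which held for 0.872% and 0.815% of all genes tested. In cluster 3, for example, *Trem2* stood at 226 and 140 CPM after medium R848-BPDs, at 394, 379 and 296 after free R848, and at 466, 497 and 552 after saline. For *Lpl* the same held in 5 of 6 clusters in both comparisons, and 2.3% and 2.31% of all genes reached at least 5. In cluster 3 *Lpl* stood at 55.6 and 42.1 CPM after medium R848-BPDs, 179, 268 and 202 after free R848, and 469, 181 and 561 after saline. For *Cd9* it held in 5 of 6 against saline and 3 of 6 against free R848, and for *Apoe* in 5 of 6 against saline and 1 of 6 against free R848. *Gpnmb* was above every saline tumor in 3 of 6 clusters and above every tumor given free R848 in 2 of 6. For higher levels, and for counts under 5, the share over all genes was not computed, so these counts are a description. The clusters share tumors and are not replicates.

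**Figure D3:**
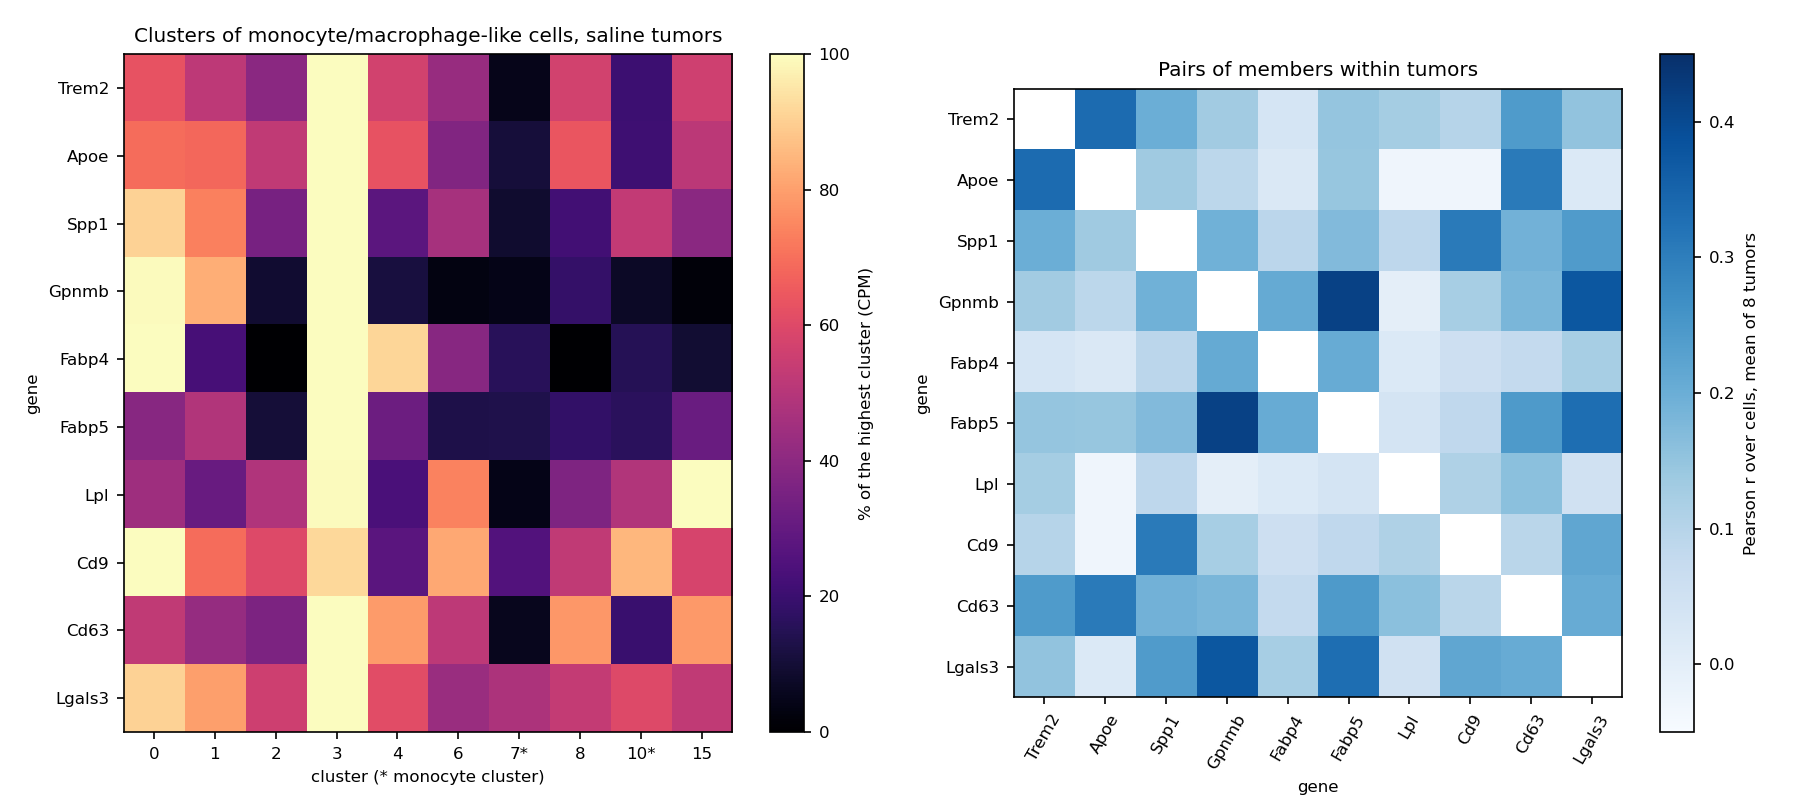
Left, mean level of each gene over the saline tumors (2 tumors for cluster 8) in the 10 clusters of monocyte/macrophage-like cells, as a percentage of the cluster in which it was highest, with asterisks on the monocyte clusters. Right, Pearson correlation of pairs of genes over cells, averaged over 8 tumors. *Trem2* and *Apoe* peak in cluster 3, clusters 3 and 0 are close for *Gpnmb* (345 and 344 CPM), and the darkest pair is *Gpnmb* with *Fabp5* (0.42).

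Over single cells of a tumor, the members varied together only loosely. The correlations below are means over 8 tumors of Pearson's r between log-normalized values, the cells share a library and differ in depth, and the values are given as a description. The highest pair was *Gpnmb* with *Fabp5* (0.42, from 0.32 to 0.49), followed by *Gpnmb* with *Lgals3* (0.37), *Trem2* with *Apoe* (0.34), *Fabp5* with *Lgals3* (0.33), *Apoe* with *Cd63* (0.31) and *Spp1* with *Cd9* (0.31). The receptor thus varied most with the lipoprotein gene, and *Gpnmb* with the fatty acid carrier. Outside the list, the genes most like *Apoe* were *Lgmn*, a lysosomal protease (0.49), and *Ms4a7* (0.47), and the gene most like *Cd63* was *Timp2* (0.42). *Gpnmb* and *Lgals3* had the same first gene, *Il7r*, the receptor chain for interleukin-7 (0.40 and 0.45), and *Lgals3* was also close to *Vim* (0.43) and *Emp1* (0.42). *Trem2* was closest to *Pf4* and the lysosomal protease gene *Ctsd* (0.33 each), *Fabp5* to *Ctsb* (0.36) and *Ctsd* (0.33), and *Spp1* to *Pdpn* (0.35). Outside the list, no gene reached 0.3 with *Fabp4*, *Lpl* or *Cd9*.

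The lipid genes around the members moved in both directions in monocyte/macrophage-like cells. Between medium R848-BPDs and saline, 7 of 35 tested genes of lipid uptake, storage and efflux rose and 1 fell, a share of 22.9% beside 7.22% of all genes, and the median log2 fold change of the list was 0.18. The list was chosen with earlier results of these data known, so its share is given as a description. *Plin2*, which coats lipid droplets, stood at 948 and 1196 CPM after medium R848-BPDs, 593, 499 and 737 after free R848, and 281, 279 and 375 after saline, with no overlap between any of the groups (log2 fold change 1.81 ± 0.24 against saline, adjusted p = 0.00498 from edgeR). Also higher against saline were *Cd36*, a scavenger receptor for oxidized lipoproteins (1.70), *Pltp*, a phospholipid transfer protein (1.67), *Nr1h3*, which encodes the sterol-sensing receptor LXRα (1.42), its partner *Rxra* (1.18), *Apoc2*, the cofactor of lipoprotein lipase (1.06), and *Soat1*, which esterifies cholesterol (0.64), all as log2 fold changes with adjusted p from 0.014 to 0.0429 in edgeR. *Cyp27a1*, which oxidizes cholesterol, was the gene that fell (−1.50). *Rxra* rose against free R848 as well, from 28.0, 30.3 and 26.3 CPM to 65.5 and 75.9 (log2 fold change 1.36 ± 0.21, adjusted p = 0.0199 from edgeR), the only gene of the list called in that comparison. Without saline replicate 2, 12 genes of the list were called against saline and 9 against free R848, where 11.7% and 5.73% of all genes were called, and without medium R848-BPD replicate 2 there were 0 in both, beside 0.855% and 0.156%.

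Among the 28 tested lysosomal and disease-associated phagocyte genes, the smallest p against saline was that of *Axl*. *Axl*, a receptor for apoptotic cells bound by GAS6, stood at 111 and 94.8 CPM after medium R848-BPDs, at 257, 255 and 259 after free R848, and at 329, 395 and 305 after saline. The 3 groups were fully separated. The log2 fold changes were −1.71 ± 0.14 against saline and −1.28 ± 0.13 against free R848 (adjusted p = 0.000433 and 0.00462 from edgeR), and the second was lost without medium R848-BPD replicate 2 (adjusted p = 0.0766). *Itgax*, which encodes CD11c, fell as well (−1.95 ± 0.44 against saline), while *Creg1* rose (0.88 ± 0.20), with adjusted p of 0.0345 and 0.0317. Of 22 tested receptors and partners of the members, 3 integrin genes fell against saline, *Itgav* (−0.86), *Itga4* (−0.89) and *Itgb5* (−1.07), which encode chains of osteopontin receptors, and the tetraspanin *Cd151* rose (0.82), with adjusted p from 0.0228 to 0.0316 in edgeR. None of this list was called against free R848. Of 20 tested genes of TREM2 signaling, 2 were called against saline, *Treml2* higher (0.77) and *Plcg2* lower (−0.69, adjusted p = 0.0496 from edgeR), both of which were named after their values were seen, and none against free R848. Between free R848 and saline no gene of the 4 lists was called. The shares called against saline were 10.7%, 18.2% and 10% of these 3 lists, beside 7.22% of all genes. These lists too were chosen with earlier results of the data known. The medians of these 3 lists against saline were 0.08, −0.17 and −0.17, against −0.01 for all genes. Without medium R848-BPD replicate 2, the calls against saline numbered 1, 0 and 0 in these 3 lists, and without saline replicate 2 they numbered 8, 8 and 4, in fits that called 0.855% and 11.7% of all genes.

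Across cell classes, the 10 genes were not equally tied to macrophages. *Trem2* and *Apoe* were highest in monocyte/macrophage-like cells in every tumor and class compared, with 199 ± 68.7 CPM of *Trem2* (SD, n = 8) there against 46.7 ± 45.1 in T-like and 21.9 ± 21.3 in DC-like cells, 4.24 ± 5.31 in the NK-like class and 3.84 ± 4.04 in the tumor cell class (MC38-like). The order of the last 2 held in 5 of 8 tumors, and they do not differ beyond their spread. *Lgals3* had its highest mean in monocyte/macrophage-like cells too, at 2565 ± 624 CPM, and MC38-like cells (1902 ± 605) lay below them in 7 of 8 tumors. *Cd63*, on the other hand, stood at 1190 ± 180 CPM in MC38-like cells, above the 402 ± 121 of monocyte/macrophage-like cells in 8 of 8 tumors, with DC-like cells between (504 ± 233). *Spp1* was at 2162 ± 617 CPM in NK-like cells and 1661 ± 243 CPM in MC38-like cells, higher than in monocyte/macrophage-like cells in 7 and 6 of 8 tumors. *Fabp5* was higher in DC-like (226 ± 98.3) than in monocyte/macrophage-like cells (158 ± 78.3) in 6 of 8 tumors, within their spread, and *Gpnmb* was highest in the latter (257 ± 186) and 95.1 ± 23.8 in MC38-like cells.

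Smaller classes held the highest levels of some members. *Lpl* reached 883 and 819 CPM in the osteoclast-like cells of the 2 tumors that had at least 10 of them, free R848 replicate 2 and saline replicate 3, against 180 and 277 in monocyte/macrophage-like cells there. *Cd9* stood between 196 and 662 CPM in the neutrophil-like cells of 5 tumors, above the monocyte/macrophage-like level in 5 of 5. *Cd63* was at 1519 and 1132 CPM in fibroblast-like cells of the 2 tumors given medium R848-BPDs, which also held 176 and 321 CPM of *Lpl*. *Fabp4* was rare in every class, with 4 and 7 UMIs in the fibroblast-like cells of these tumors (22.7 and 29.6 CPM) beside 10.4 and 34.1 CPM in their monocyte/macrophage-like cells. These classes hold few cells and were not tested.

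**Figure D4:**
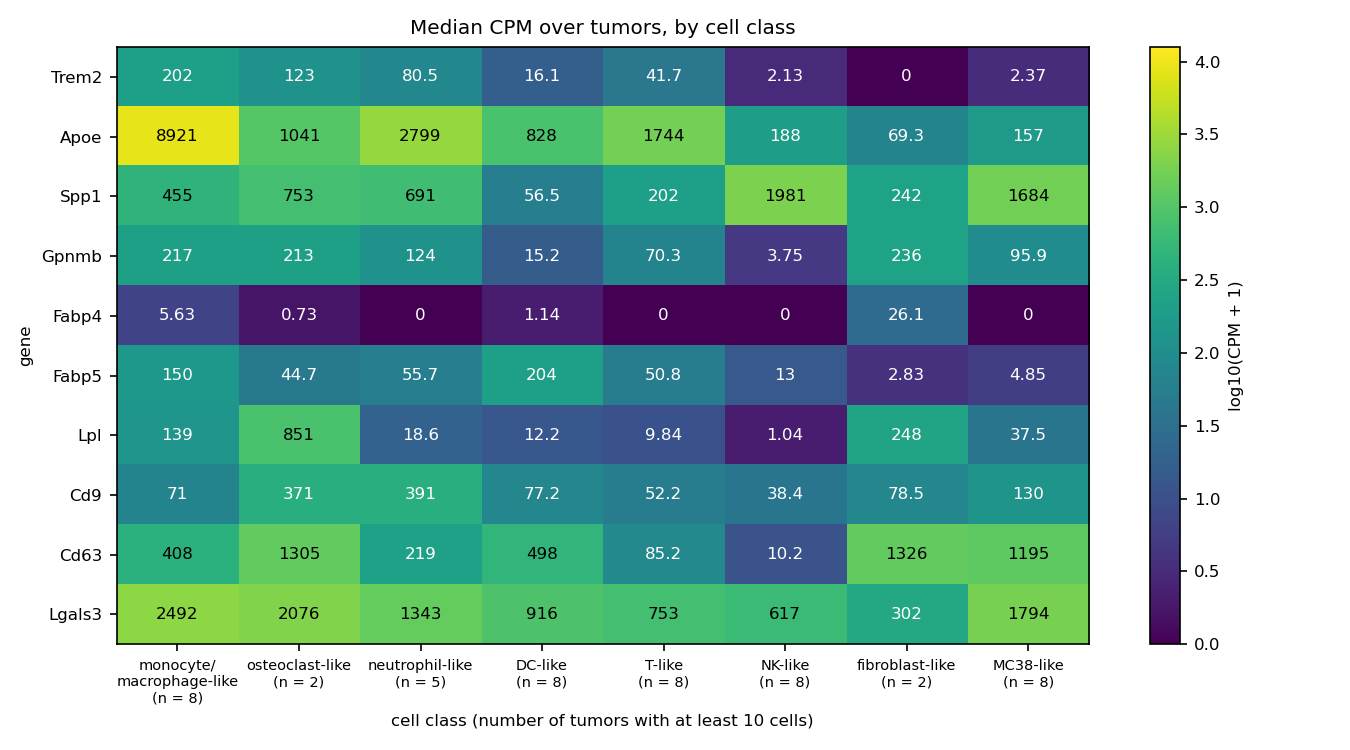
Median level of each gene over tumors in 8 cell classes, printed in CPM, with color on a log10 scale and below each column how many tumors contributed 10 or more such cells. UMIs were not scaled to gene length, so levels are to be read along 1 gene. *Trem2*, *Apoe* and *Lgals3* have their highest median in monocyte/macrophage-like cells (202, 8921 and 2492), *Spp1* in NK-like cells (1981), *Lpl* in osteoclast-like cells (851) and *Cd63* in fibroblast-like cells (1326), which came from the 2 tumors given medium R848-BPDs alone.

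DC-like cells had the most members called. Between medium R848-BPDs and saline, 5 of the 8 genes tested in this class were called, 3 higher and 2 lower, where 13.9% of all genes were called. *Fabp5* stood at 367 and 316 CPM after medium R848-BPDs, 318, 205 and 203 after free R848, and 79.0, 170 and 152 after saline (log2 fold change 1.48 ± 0.31 against saline, adjusted p = 0.00595 from edgeR). *Cd63* stood at 726 and 458 CPM, at 873, 621 and 538, and at 189, 271 and 355 in the same order of groups, so that all 5 R848-treated tumors lay above the saline tumors. It rose against saline both after medium R848-BPDs (1.15 ± 0.30, adjusted p = 0.0182 from edgeR) and after free R848 (1.35 ± 0.28, adjusted p = 0.0318), the one member called in the latter comparison, where 1.78% of all genes were called. *Cd9* stood at 37.1 and 61.4 CPM after medium R848-BPDs, 56.7, 98.3 and 52.9 after free R848, and 152, 93.0 and 170 after saline, which separated medium R848-BPDs from saline (−1.64 ± 0.35, adjusted p = 0.00595 from edgeR). *Lgals3*, at 604 and 691 CPM, 699, 747 and 1170, and 1451, 1084 and 1449, fell against saline as well (−1.05 ± 0.26, adjusted p = 0.0124 from edgeR). *Gpnmb* rested on 36 and 39 UMIs after medium R848-BPDs and on 1, 3 and 2 after saline, a ratio of 15.2 per UMI of the class (95% interval 6.66 to 42.7, counting error only). The levels were 49.5 and 120 CPM after medium R848-BPDs, 75.6, 5.62 and 5.88 after free R848, and 1.14, 23.2 and 7.25 after saline, and the log2 fold change against saline was 3.90 ± 0.98 (adjusted p = 0.0149 from edgeR). Free R848 replicate 1 lay between the tumors given medium R848-BPDs. DESeq2 did not call it (adjusted p = 0.231). *Gpnmb* passed the filter on low counts through the 2 tumors given medium R848-BPDs and free R848 replicate 1, in which it was high, so its test is given as a description and not as support for the count of members called, which was 4 without it. Between medium R848-BPDs and free R848 none was called (0.857% of all genes) and none had an unadjusted p under 0.05, and DESeq2 called none either.

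Some of these calls depended on single tumors. Without medium R848-BPD replicate 1 the adjusted p in edgeR was 0.056 for *Fabp5*, 0.266 for *Cd63*, 0.146 for *Cd9* and 0.166 for *Lgals3*. Without saline replicate 1 it was 0.111 for *Cd63*, 0.173 for *Gpnmb* and 0.0559 for *Lgals3*, and without medium R848-BPD replicate 2 it was 0.105 for *Gpnmb* and 0.0656 for *Lgals3*. For *Cd63* between free R848 and saline it was 0.0664 and 0.0604 without free R848 replicates 1 and 2, and 0.228 and 0.052 without saline replicates 1 and 3. In that comparison no member was called with doublets left out. Without free R848 replicate 1, the tumor with 49 of the 100 doublets, *Gpnmb* had a log2 fold change of 3.74 between medium R848-BPDs and free R848 (adjusted p = 0.0125 from edgeR). It then passed the filter on low counts only through the tumors given medium R848-BPDs, in which it was high, so this value is given as a description. *Lgals3* against saline was not called with doublets left out (adjusted p = 0.116 from edgeR). *Spp1* was called lower against saline without free R848 replicate 1 or saline replicate 2 (adjusted p = 0.0321 and 0.0264 from edgeR). With the same number of cells drawn from every tumor, none of the 5 genes was called.

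The make-up of the DC-like class differed with the treatments along with these genes. Its cells formed 2 clusters, one of 353 cells led by *Ccl22*, *Ccr7*, *Fscn1* and *Il12b*, genes of activated dendritic cells that migrate to lymph nodes, and one of 303 cells led by *Kmo*, *Flt3* and MHC class II genes. The first held 86.9% and 88.2% of DC-like cells after medium R848-BPDs, 82.2%, 56.6% and 57.4% after free R848, and 19.6%, 32% and 31.5% after saline. Over all tumors, the first and second cluster stood at 838 and 42.3 CPM of *Cd63*, 368 and 34.0 of *Fabp5*, 55.2 and 2.08 of *Gpnmb*, 59.5 and 137 of *Cd9*, and 580 and 1558 of *Lgals3*. Within the first cluster, *Cd63* was at 824 and 513 CPM after medium R848-BPDs and at 769 and 985 in the 2 saline tumors with at least 10 such cells, so the order was not that of the whole class. *Fabp5* stood at 416 and 358 there against 253 and 344, *Cd9* at 36.1 and 53.1 against 126 and 166, *Lgals3* at 452 and 726 against 1175 and 771, and *Gpnmb* at 56.5 and 138 against 0 UMIs in both saline tumors, which allows up to 16.5 and 35.6 CPM. In the 3 tumors given free R848 the first cluster held 1037, 1092 and 891 CPM of *Cd63*, 377, 351 and 336 of *Fabp5*, 58.3, 55.1 and 50.9 of *Cd9*, 664, 351 and 346 of *Lgals3*, and 89.8, 10.02 and 10.18 of *Gpnmb*. Within this cluster the nearest medium R848-BPD and saline tumors stood at 358 and 344 CPM of *Fabp5*, against 316 and 170 in the whole class. These comparisons rest on 2 tumors a group and were not tested.

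**Figure D5:**
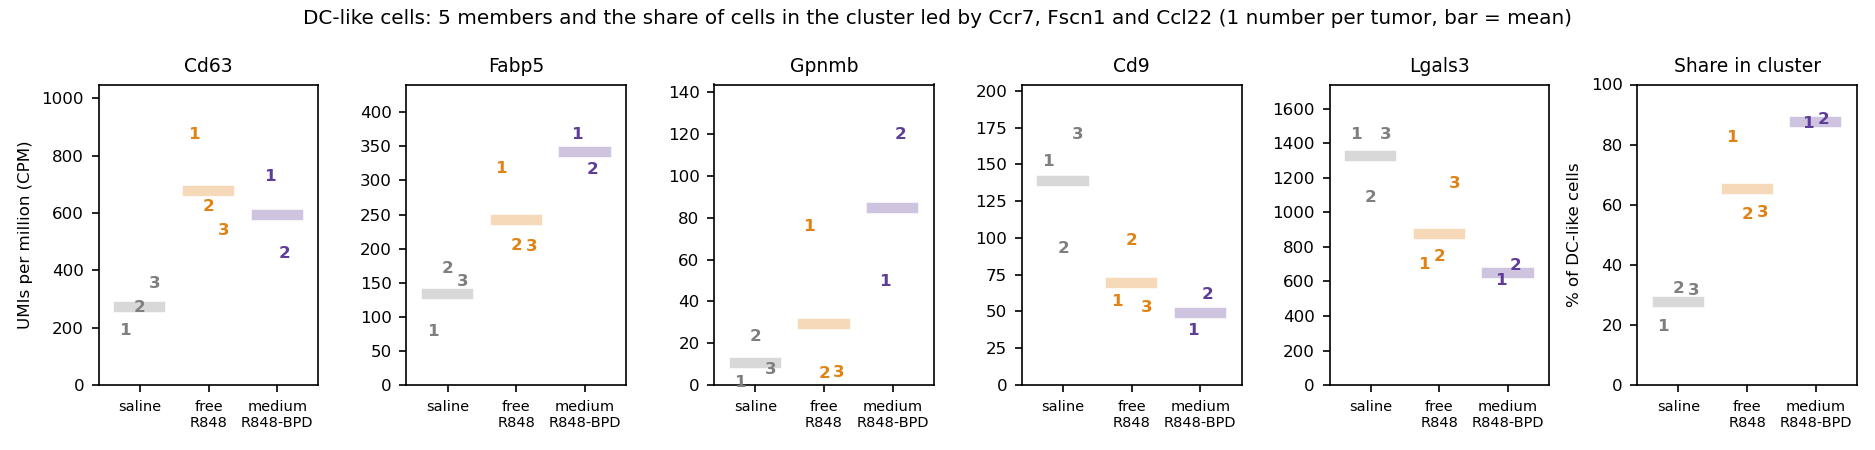
Levels of 5 genes in DC-like cells (CPM, linear axes from 0) and, in the last panel, the percentage of DC-like cells in the cluster led by *Ccr7*, *Fscn1* and *Ccl22*. Each printed number is the replicate number of 1 tumor and the bar is the group mean. *Cd63* and the share of the cluster are lowest in the 3 saline tumors, where the share was 19.6%, 32% and 31.5%.

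In T-like cells, *Lpl* was the 1 member called, but it passed the filter on low counts through the saline tumors, in which it was high, and its test is given as a description. It was counted 3 times in the 2 tumors given medium R848-BPDs and 85 times in the 3 saline tumors, and was thus 32.4 times higher per UMI in the latter (95% interval 10.7 to 160, counting error only). The adjusted p was 0.0427 in edgeR, where 0.109% of all genes were called, and the call held in 7 of 19 alternatives. Without free R848 replicates 1, 2 and 3 it was 0.0712, 0.0673 and 0.122, without medium R848-BPD replicates 1 and 2 it was 0.204 and 0.118, and without saline replicates 1 and 3 it was 0.173 and 0.14, all from edgeR. Without saline replicate 2, *Spp1* was called as well (log2 fold change −3.07, adjusted p = 0.00174 from edgeR), and *Lpl* and *Spp1* were also called lower after free R848 than after saline (adjusted p = 0.0241 and 0.0173), in fits that called 0.127% and 0.0423% of all genes. Between medium R848-BPDs and free R848 no member was called (0.0815% of all genes), with 1 at an unadjusted p under 0.05 (7.47% of all genes), and between free R848 and saline none was called (0% of all genes), with 6 of 9 at an unadjusted p under 0.05 (5.73% of all genes), and DESeq2 called 0 and 1, respectively. The 9 macrophage markers were all found in T-like cells of each tumor and summed to 1659 and 3970 CPM there after medium R848-BPDs, to 1351, 2644 and 989 after free R848, and to 1744, 6153 and 1894 after saline, so that these sums overlapped. Of single macrophage genes, *Lyz2* stood at 426 and 760 CPM in T-like cells after medium R848-BPDs and at 1464, 1574 and 1467 after saline, and *Csf1r* at 129 and 141 against 249.5, 499.9 and 246, both lower in the former. Others overlapped between these groups. *C1qa* stood at 328 and 690 CPM against 388, 1305 and 503, *C1qb* at 398 and 741 against 282, 1658 and 408, and *C1qc* at 244 and 570 against 199, 1214 and 200. Relative to monocyte/macrophage-like cells of the same tumor, T-like cells held a median of 19.3% of the *Trem2* level, 19.4% of *Apoe*, 12.7% of *Lpl* and 15% of *C1qa*, a macrophage gene. The part of macrophage RNA in these values was not tested.

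NK-like cells had no called member in any comparison. The share of all genes called was 0.306% between medium R848-BPDs and free R848, 0.872% between medium R848-BPDs and saline, and 0% between free R848 and saline, and of the 7 members tested 1, 0 and 0 had an unadjusted p under 0.05, beside 8.92%, 10.3% and 4.57% of all genes. DESeq2 called none of them. *Spp1* stood at 2074 and 1395 CPM after medium R848-BPDs, 3248, 1888 and 1705 after free R848, and 1845, 2279 and 2865 after saline, and the groups overlapped.

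In MC38-like cells, *Lgals3* rose after medium R848-BPDs. It stood at 3077 and 2416 CPM after medium R848-BPDs, 1993, 1791 and 1796 after free R848, and 1162, 1523 and 1461 after saline. The 3 groups did not overlap, and the tumors given free R848 lay between the others. The log2 fold change was 1.01 ± 0.14 against saline (adjusted p = 0.00625 from edgeR), the one member called there, where 0.899% of all genes were called, and it was called without each single tumor, but not with only the 2 groups compared in the fit (1.00, adjusted p = 0.0578). Against free R848 it was 0.58 ± 0.14 (adjusted p = 0.101 from edgeR, 0.00383 from DESeq2), and no member was called by edgeR (0.296% of all genes). Between free R848 and saline no member was called (0% of all genes), with *Lgals3* as the 1 member at an unadjusted p under 0.05 (0.43 ± 0.12, unadjusted p = 0.00421), as had 8.7% of all genes, and DESeq2 called none. *Cd63* and *Spp1* had log2 fold changes of 0.29 ± 0.15 and 0.02 ± 0.15 between medium R848-BPDs and saline (adjusted p = 0.413 and 0.978 from edgeR). The macrophage markers summed to 66.6 to 794 CPM in MC38-like cells, and to 81.0 and 136 in the tumors given medium R848-BPDs.

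Whether a member responded differently in another class than in monocyte/macrophage-like cells was tested by fitting both classes together, with each tumor as a block. *Lpl* was too rare in DC-like cells to be tested there alone, with 14 and 14 UMIs after medium R848-BPDs, 0, 5 and 1 after free R848, and 9, 2 and 2 after saline. It entered the fit of both classes only through its level in monocyte/macrophage-like cells, so no difference in response is given for it. The share of all genes called for DC-like cells was 3.04% with saline and 0.285% with free R848 as the reference for medium R848-BPDs, and of the 8 members tested in both classes 0 were called there by edgeR or DESeq2, with 4 and 1 at an unadjusted p under 0.05 (14.3% and 6.55% of all genes). *Cd63* differed in its response to free R848, by 1.81 ± 0.30 (adjusted p = 0.0117 from edgeR, with 0.257% called), as it stood higher than in saline tumors in DC-like cells and not in monocyte/macrophage-like cells. Without saline replicate 1 or 3 the last adjusted p was 0.244 and 0.055. No member was called for T-like, NK-like or MC38-like cells by edgeR with all tumors, where at most 0.324%, 1.15% and 2.04% of all genes were called. Of the members tested in both classes, edgeR gave 4 of 9, 1 of 7 and 6 of 9 an unadjusted p under 0.05 between medium R848-BPDs and saline, beside 7.74%, 10.6% and 16.7% of all genes, and 1 or 2 of each in the other comparisons. DESeq2 called none of them, with no adjusted p for 5 of 9 in MC38-like cells between free R848 and saline. In MC38-like cells, the difference of *Lgals3* between medium R848-BPDs and saline was 1.01 ± 0.36 (unadjusted p = 0.015, adjusted p = 0.175 from edgeR). Without saline replicate 2, however, *Cd9* and *Spp1* differed between MC38-like and monocyte/macrophage-like cells in their response to medium R848-BPDs (2.98 and 3.35, adjusted p = 6.8e-05 and 0.000277 from edgeR), as did *Lgals3* and *Lpl* (1.42 and 2.06, adjusted p = 0.0023 and 0.0281), in a fit that called 3.8% of all genes.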

How the data were processed

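The authors deposited 1 table of UMI counts per gene and cell barcode for each of 8 tumors, made from Seq-Well libraries by alignment to mm10 (GRCm38). The aligner and annotation were not given in the sources used here. Barcodes were kept if their genes numbered above 400 and under 10000, if their UMIs stayed under 50000, and if no more than 15% of these were mitochondrial, which left a median of 3247 to 6928 UMIs per cell in a tumor. Scrublet, run in scanpy 1.11.5 for each tumor, marked 100 doublets, which were kept. Cells were clustered in Seurat 5.3.0, first with 30 principal components at a resolution of 0.8, then, for nonmalignant cells, with 11 at 1.3, leaving out the 10 members, the 4 gene lists and the genes of the study's treatment comparison. Clusters were named from marker lists, and a cluster of 355 cells with poor quality was removed by a rule set after the clusters were seen. Gene counts were summed per tumor and class (at least 10 cells) and tested with edgeR 4.0.16 (TMM factors, filterByExpr, quasi-likelihood F test) with all 3 groups in the fit, and p-values were adjusted by the Benjamini-Hochberg method over all genes tested, with a threshold of 0.05. Groups and replicates are those of the labels, and p-values measure the spread between tumors of different mice. Intervals cover counting error only.

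Each result was also computed with DESeq2 1.42.0, with RLE size factors, without the filter, with only the 2 groups compared in the fit, with the replicate number as a block, with other clusterings, at thinning depths of 500 and 2000 UMIs, and without each tumor, the doublets or the shared barcodes, the last of which was chosen after seeing the data, as were the counts of the lists under all alternatives. The members and lists were chosen with earlier results of these data known. Beyond the members, up to 15 called list genes per comparison with the smallest p were named, and per member up to 3 genes with the highest mean correlation of at least 0.3. The fits were tested on simulated data. Replicate numbers were checked and do not pair the tumors. Positions are from GENCODE vM21 for GRCm38.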

Additional observations from a re-analysis of the deposited data

Results flagged for a closer look

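A difference in response between DC-like and monocyte/macrophage-like cells drew attention to 1 member tested in both classes. For *Cd63*, the response to free R848 compared with saline was 1.81 higher in DC-like cells. The share of DC-like cells in the cluster led by *Ccr7* and *Fscn1* was 65.4% ± 14.6 after free R848 and 27.7% ± 6.99 after saline (mean ± SD, 3 tumors each). After medium R848-BPDs the share was higher still, at 87.6% ± 0.955 (2 tumors). There the *Cd63* difference, with saline as the reference, was 1.11 ± 0.33 and was not called (adjusted p = 0.0669 from edgeR). The part of that share in the *Cd63* values was not tested.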

How the results depend on the processing

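With 2 or 3 tumors in a group, calls moved with single tumors and settings, and *Fabp4* had as few as 0.154 CPM in a tumor. Over all alternatives 424 counts of members or genes stayed within 1.5 times the reported one and 107 did not, and of the other values 1052 were the same, 74 moved, 26 passed the threshold newly, 13 no longer passed it and 45 changed sign. The causes were not tested.

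Below, the comparisons are in the order medium R848-BPDs against free R848, medium R848-BPDs against saline, and free R848 against saline. Where no share of all genes stands beside a count, that count cannot tell a change in the members from a change in all calls. Without a filter on low counts, the members called numbered 7, 7 and 2 in monocyte/macrophage-like cells (4.58%, 8.47% and 2.58% of all genes), 1 and 6 in the first and last comparison in DC-like cells (1.64% and 2.66%), 1, 5 and 5 in T-like (1.43%, 1.2% and 0.858%), 1, 1 and 1 in NK-like (0.758%, 1.3% and 0.273%) and 2, 4 and 2 in MC38-like cells (2.8%, 3.83% and 1.01%). Differences of response from monocyte/macrophage-like cells, which here include members too rare to be tested in the other class alone, such as *Lpl* in DC-like cells (1 in each of the first 2 comparisons), then numbered 5 for DC-like cells against saline (2.2% of all genes), 4 and 4 for T-like cells in the last 2 comparisons (0.962% and 0.759%), 1, 3 and 2 for NK-like (0.91%, 1.78% and 0.273%) and 5, 7 and 4 for MC38-like cells (1.76%, 4.31% and 1.27%). DESeq2 called 2 members in monocyte/macrophage-like cells in the first comparison, 2 and 1 in T-like cells in the last 2 and 1 in MC38-like cells in the first, and 0 differences for DC-like cells in the first. With only the 2 groups compared in the fit there were 2 and 1 in monocyte/macrophage-like cells in the first 2 comparisons, 0 in T-like and MC38-like cells against saline, 2 differences for DC-like cells against saline and 1 for MC38-like cells against free R848.

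With an equal number of cells per tumor, 0 members were called in DC-like cells in either comparison with saline and 0 in T-like cells, with 0 differences for DC-like cells after medium R848-BPDs and 1 for NK-like cells against saline. With doublets left out there were 1 in the first and 0 in the last comparison in DC-like cells and 0 in T-like cells. With the poor-quality cluster kept there were 2 in DC-like cells in the last comparison, 0 in T-like cells, 0 differences for DC-like cells in the first and 1 for MC38-like cells against saline. With clusters from all variable genes there were 0 in T-like cells, 0 differences for DC-like cells in the first comparison and 1 for T-like cells in the last, and with macrophage clusters only there were 2 for DC-like cells against saline.

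Replicate numbers are not a pairing of tumors, since the correlations of same-numbered tumors ran from −0.244 to 0.215. With the replicate block, 0 members were called in monocyte/macrophage-like cells in the second comparison (*Trem2* −1.09, adjusted p = 0.0699 from edgeR), 3 and 0 in DC-like cells in the last 2 comparisons, and 3 and 2 in T-like cells. The log2 fold changes that turned were *Lgals3* with the block in the first and second comparison (0.22 and 0.20) and *Fabp5* in the last (0.23).

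Leaving out 1 tumor gave 0 to 1, 0 to 4 and 0 to 2 members in monocyte/macrophage-like cells, 0 to 1, 1 to 6 and 0 to 2 in DC-like, 0 to 0, 0 to 2 and 0 to 2 in T-like, 0 to 0 in NK-like, and 0 to 1, 1 to 1 and 0 to 0 in MC38-like cells. Differences numbered 0 to 2, 1 to 4 and 0 to 2 for DC-like, 0 to 0, 0 to 1 and 0 to 1 for T-like, 0 to 0, 0 to 2 and 0 to 2 for NK-like, and 0 to 0, 0 to 4 and 0 to 2 for MC38-like cells, and 11 to 16 shares did not overlap.

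Some values changed sign. In log2, *Lgals3* in the first comparison was 0.0029 in DESeq2 and with RLE size factors, 0.0058 without a filter and 0.016 in macrophage clusters only, *Cd63* in the second was −0.11 in macrophage clusters only, and *Fabp4* in the last was −0.13 in DESeq2. Leaving out 1 tumor gave −0.21 to 0.15 for *Apoe* and −0.11 to 0.10 for *Lgals3* in the first, −0.21 to 0.48 for *Cd63* and −0.38 to 0.31 for *Lgals3* in the second, and −0.67 to 0.016 for *Cd63*, −0.68 to 1.95 for *Fabp4*, −0.44 to 0.72 for *Fabp5*, −0.21 to 2.07 for *Gpnmb* and −0.37 to 0.31 for *Lgals3* in the last. In percentage points of cells, *Apoe* was −1.14 at 500 UMIs and −0.65 undrawn in the first, 0.249 in the second and 1.39 in the last at 500 UMIs, and *Lgals3* in the last was 1.21 without shared barcodes. Leaving out 1 tumor gave −3.66 to 5.26, −4.68 to 4.24 and −4.37 to 3.39 for *Apoe*, and in the last −4.97 to 0.256 for *Cd63*, −0.137 to 0.262 for *Fabp4*, −0.403 to 4.96 for *Fabp5* and −5.15 to 3.35 for *Lgals3*.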
